A study of Macaca mulatta with 18 samples.

Results

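The 9 neuropeptide genes described here are SST, NPY, GRP, CCK, TAC1, VIP, CRH, PENK and PDYN, out of 22345 genes in the RNA table. They are given by name, with no threshold on their values, and each symbol matched a single Ensembl identifier of the table: ENSMMUG00000000850 for SST, ENSMMUG00000009818 for NPY, ENSMMUG00000007584 for GRP, ENSMMUG00000001077 for CCK, ENSMMUG00000014823 for TAC1, ENSMMUG00000019074 for VIP, ENSMMUG00000021587 for CRH, ENSMMUG00000006775 for PENK and ENSMMUG00000009984 for PDYN. Gene coordinates are not given here. RNA came from wild-type rhesus macaque (Macaca mulatta) fetal brain at embryonic day 84 (E84). Cells were taken from a zone that the labels call CP (3 RNA-seq libraries) and from a zone called GZ (3 RNA-seq libraries). The labels do not spell the abbreviations out; in work on cortical development they usually stand for cortical plate, where newborn neurons settle, and germinal zone, where progenitors divide. Libraries are numbered 1 to 3 in each zone, after the sample titles. Whether the numbers stand for separate animals is not in the labels. The limma p-values set the difference between zones against the spread of libraries within a zone, moderated over all genes tested. Part of that spread may be technical. Values are FPKM (fragments counted per transcript length and per sequencing total) that the authors normalized with cqn and deposited on a log2 scale. Read depth is unknown, because the table carries no read totals.

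Neuropeptides are made as longer precursor proteins, cut at basic residues by proprotein convertases, trimmed by carboxypeptidase E, stored in dense-core vesicles and released to act mostly on G protein-coupled receptors. In the mature mammalian cortex SST, NPY, VIP and CCK mark classes of GABAergic interneurons, and CCK is also made by pyramidal neurons. In the striatum TAC1 and PDYN are markers of the direct-pathway projection neurons and PENK of the indirect-pathway ones. Cortical interneurons are born in the ganglionic eminences of the ventral forebrain and migrate into the cortex.

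All 12 cycling progenitor genes tested were higher in GZ (MKI67 4.24-fold, log2 difference, CP minus GZ, -2.08 ± 0.28 SE, limma adjusted p = 9.27e-04). Correlations of log2 profiles ran from 0.971 to 0.987 within a zone and from 0.895 to 0.935 between zones. Among 13460 genes with a mean log2 FPKM of at least 0, 20.9% were called higher in CP and 24.5% higher in GZ at a limma adjusted p under 0.05.

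Of the 9 neuropeptide genes, 5 were higher in CP: GRP, TAC1, SST, CRH and CCK. None was called higher in GZ by limma, and 0 had an unadjusted p under 0.05 in that direction. The count called higher in GZ was 1 without GZ replicate 3, and 1 with a block on the library number. NPY and PENK did not pass the test, and VIP and PDYN lay below the limit on the mean and were not tested. The 5 calls are to be read against the 20.9% of all tested genes that were called higher in CP. All 5 also had every CP library above every GZ library, which held for 25.5% of all genes tested. The median log2 difference over the 7 tested members was 1.66, against -0.05 over all genes tested. That median is the value of CRH, which passed the limit on the mean only through its CP level, so the limit helps to set it. The libraries are of bulk cells, so fewer cells that make a peptide and less RNA in each of them cannot be told apart.

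**Figure D1:**
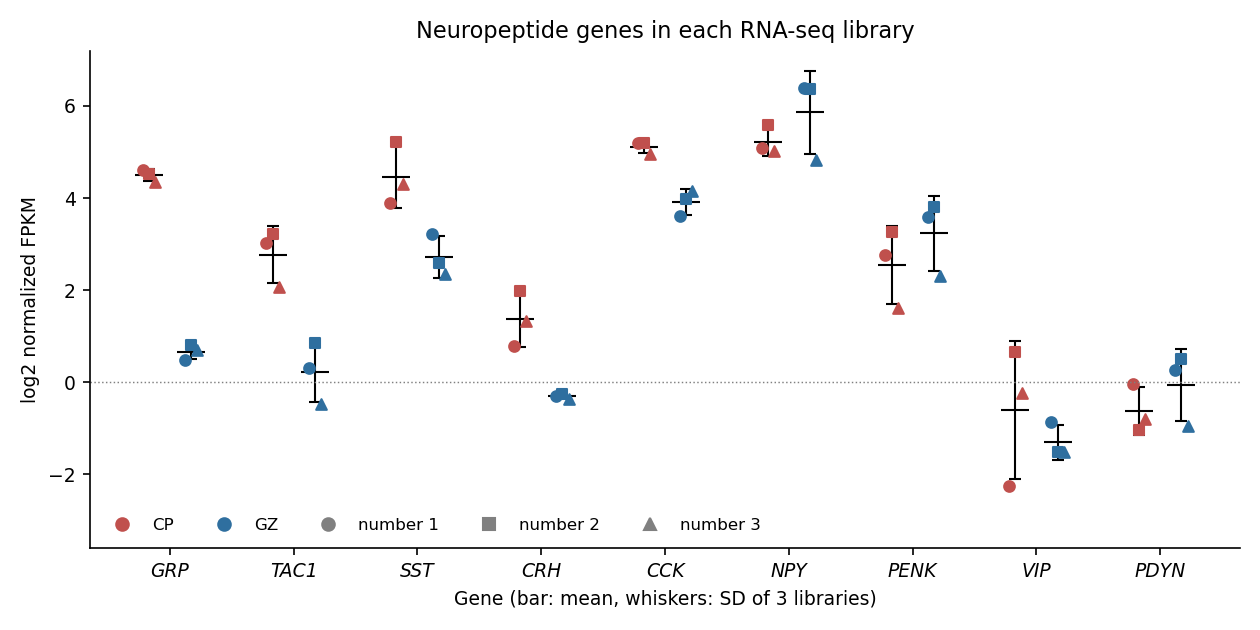
Log2 normalized FPKM of each neuropeptide gene in the 3 CP and 3 GZ libraries, with the mean and SD of each zone; marker shape gives the library number. The CP points lie above every GZ point for GRP, TAC1, SST, CRH and CCK, and the zones overlap for NPY, PENK, VIP and PDYN.

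GRP codes for gastrin-releasing peptide, a bombesin-like peptide. Its level was 24.4, 23.1 and 20.4 FPKM in CP 1, 2 and 3, against 1.40, 1.74 and 1.62 FPKM in GZ 1, 2 and 3. All CP libraries lay far above all GZ libraries, and libraries of a zone were close together. CP libraries had a mean log2 FPKM of 4.50 ± 0.13 and GZ libraries of 0.66 ± 0.16 (SD, n = 3 each). The log2 difference, CP minus GZ, was 3.84 ± 0.15 (SE), a 14.3-fold higher level in CP with a 95% confidence interval of 11.3 to 18.1 (limma adjusted p = 9.93e-06). Only 0.156% of all genes tested were called with a difference of at least 10-fold in favour of CP, and GRP ranked 8 among all genes tested by its log2 difference.

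TAC1 codes for the precursor of substance P and neurokinin A. It had 8.12, 9.32 and 4.16 FPKM in CP 1, 2 and 3, against 1.24, 1.79 and 0.720 FPKM in GZ 1, 2 and 3. The zones did not overlap, and the library numbered 3 was the lowest in each. The log2 difference was 2.54 ± 0.40 (SE), which is 5.82-fold (95% interval 3.05 to 11.1, limma adjusted p = 0.00198).

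SST codes for somatostatin, an inhibitory peptide. Its level was 14.7, 37.2 and 19.7 FPKM in CP 1, 2 and 3, against 9.36, 6.04 and 5.10 FPKM in GZ 1, 2 and 3. The zones did not overlap, but the nearest libraries, CP 1 and GZ 1, were much closer to each other than CP 2 was to any GZ library. The log2 difference was 1.74 ± 0.35 (SE), or 3.35-fold (95% interval 1.91 to 5.86, limma adjusted p = 0.00529).

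CRH codes for corticotropin-releasing hormone. It was low in both zones, with 1.73, 3.94 and 2.50 FPKM in CP 1, 2 and 3, against 0.817, 0.840 and 0.781 FPKM in GZ 1, 2 and 3. The GZ libraries were nearly equal, while CP 2 had more than the other CP libraries. The log2 difference was 1.66 ± 0.31 (SE), or 3.17-fold (95% interval 1.92 to 5.22, limma adjusted p = 0.00396). A pseudocount of 1 FPKM gave log2 differences of 1.00 for CRH, 1.83 for TAC1 and 3.19 for GRP, and all 3 calls remained at a limma adjusted p of 0.00654, 0.00178 and 1.02e-05.

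CCK codes for cholecystokinin. Its level was 36.6, 36.5 and 30.9 FPKM in CP 1, 2 and 3, against 12.2, 15.8 and 17.9 FPKM in GZ 1, 2 and 3. Both zones expressed it well, at the 85.5 percentile of all genes in CP and the 70.1 percentile in GZ, and no libraries overlapped. The log2 difference was 1.19 ± 0.15 (SE), or 2.29-fold (95% interval 1.80 to 2.92, limma adjusted p = 7.77e-04). Of the 5 called members CCK had the smallest difference, and differences at least as large in favour of CP were found for 5.51% of all genes tested.

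**Figure D2:**
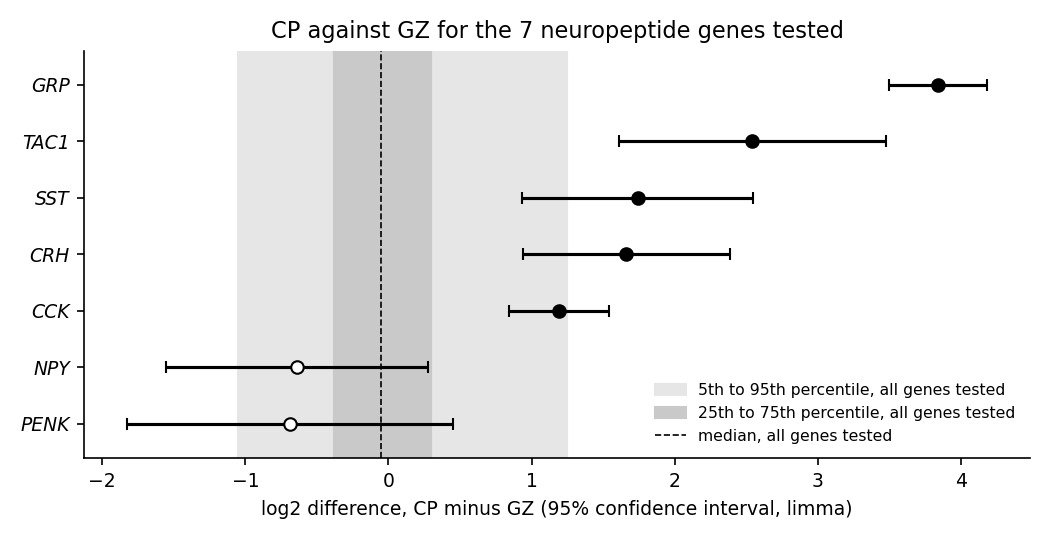
Log2 difference, CP minus GZ, of the 7 tested neuropeptide genes with 95% confidence intervals (filled points: limma adjusted p under 0.05), over the percentiles of the same difference in all 13460 genes tested. GRP, TAC1, SST and CRH lie beyond the 95th percentile of all genes, CCK lies just under it, and the intervals of NPY and PENK cross 0.

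NPY codes for neuropeptide Y and was the most abundant member in both zones by mean log2 FPKM. It had 34.0, 48.0 and 32.3 FPKM in CP 1, 2 and 3, against 84.2, 82.7 and 28.4 FPKM in GZ 1, 2 and 3. GZ 1 and GZ 2 lay above every CP library, and GZ 3 lay below every CP library. The log2 difference was -0.64 ± 0.40 (SE, 95% interval -1.55 to 0.28, limma adjusted p = 0.226). Without GZ replicate 3 NPY had a log2 difference of -1.16 (limma adjusted p = 0.00146), so the lack of a call rests on that library; over all its alternatives the adjusted p of NPY ran from 0.00146 to 0.669. GZ 3 was also the lowest GZ library for NKX2-1 and LHX6, transcription factors of the medial ganglionic eminence, the ventral region that supplies many cortical interneurons. NKX2-1 was 2.38 on the log2 scale in GZ 3, against 3.46 in GZ 1 and 4.60 in GZ 2, and LHX6 was 7.13, against 7.53 and 7.68. The summed FPKM of the medial ganglionic eminence list was 226.7 in GZ 3, 265.1 in GZ 1 and 318.5 in GZ 2. The part of these levels in the NPY result was not tested.

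PENK codes for proenkephalin, the precursor of the enkephalins. Its level on the log2 FPKM scale was 2.76, 3.26 and 1.62 in CP 1, 2 and 3, against 3.58, 3.81 and 2.31 in GZ 1, 2 and 3. The zones overlapped, and the library numbered 3 was the lowest in each zone. Same-numbered libraries differed, CP minus GZ, by -0.82, -0.55 and -0.69 for numbers 1, 2 and 3. The labels do not say that the numbers pair the libraries. A fit with a block on the number is given in the closing section. The log2 difference was -0.69 ± 0.49 (SE, 95% interval -1.82 to 0.45, limma adjusted p = 0.292).

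VIP, the gene of vasoactive intestinal peptide, and PDYN, the gene of prodynorphin, were near or below 1 FPKM in most libraries. VIP had 0.208, 1.57 and 0.855 FPKM in CP 1, 2 and 3, against 0.548, 0.348 and 0.348 FPKM in GZ 1, 2 and 3. The CP libraries ranged on both sides of the GZ libraries. PDYN had 0.966, 0.487 and 0.578 FPKM in CP 1, 2 and 3, against 1.20, 1.42 and 0.516 FPKM in GZ 1, 2 and 3, and the zones overlapped. Fitted with no limit on the mean, VIP had a log2 difference of 0.69 ± 0.63 and PDYN of -0.57 ± 0.41 (SE, limma adjusted p = 0.468 and 0.360).

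FPKM is per transcript length, so the levels of different genes can be ranked. By mean log2 FPKM the order in CP was NPY (5.23 ± 0.31), CCK (5.11 ± 0.14), GRP (4.50 ± 0.13), SST (4.47 ± 0.68), TAC1 (2.77 ± 0.62), PENK (2.55 ± 0.84), CRH (1.36 ± 0.59), VIP (-0.61 ± 1.50) and PDYN (-0.63 ± 0.51; SD, n = 3). The order in GZ was NPY (5.86 ± 0.90), CCK (3.92 ± 0.28), PENK (3.23 ± 0.81), SST (2.72 ± 0.45), GRP (0.66 ± 0.16), TAC1 (0.23 ± 0.66), PDYN (-0.06 ± 0.78), CRH (-0.30 ± 0.05) and VIP (-1.30 ± 0.38; SD, n = 3). Neighbours whose library ranges did not overlap were CCK and GRP, SST and TAC1, and CRH and VIP in CP, and NPY and CCK, SST and GRP, and CRH and VIP in GZ; the other neighbours overlapped. GRP ranked 3 in CP and 5 in GZ, and PENK ranked 6 in CP and 3 in GZ.

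The summed FPKM of the 9 genes overlapped between zones, at 127.6, 169.7 and 114.4 in CP 1, 2 and 3, against 122.9, 124.7 and 60.3 in GZ 1, 2 and 3. The log2 difference of the sums was 0.47 (exact two-sided permutation test, p = 0.4, n = 3 each). NPY held 27.7% ± 0.9 of it in CP and 60.6% ± 11.8 in GZ (SD, n = 3 each), and GRP held 16.9% ± 2.9 in CP and 1.74% ± 0.83 in GZ. SST held 16.9% ± 5.2 in CP and 6.97% ± 1.89 in GZ, and PENK 4.55% ± 1.62 in CP and 9.72% ± 1.51 in GZ. In CP no gene held more than 28.7% in any library, whereas in GZ the NPY share was 68.5% in GZ 1, 66.3% in GZ 2 and 47.1% in GZ 3. Shares of a sum are tied to each other, so these are descriptions of the same values and were not tested.

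**Figure D3:**
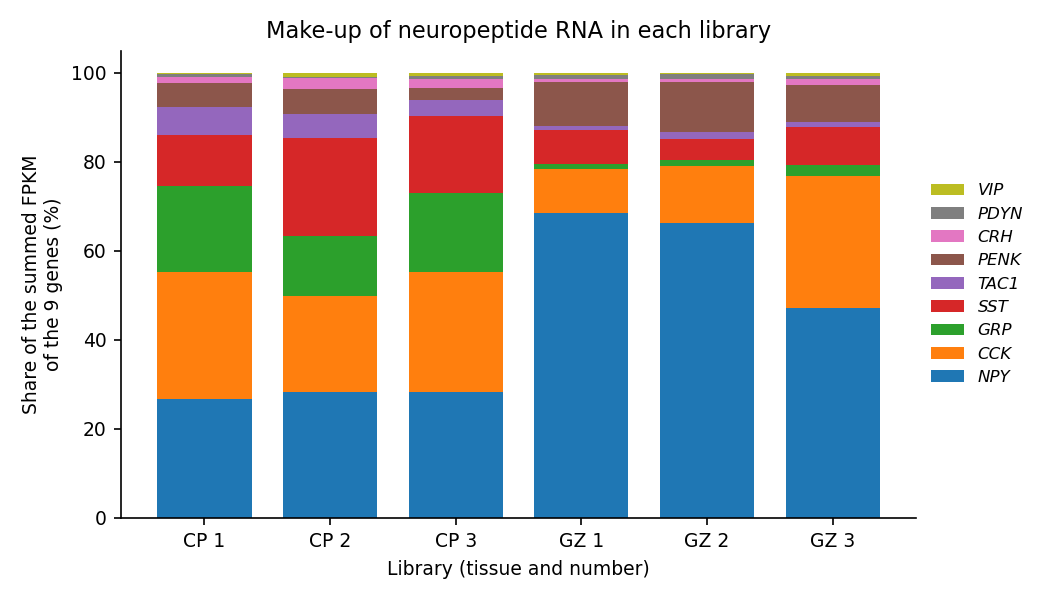
Share (%) of each gene in the summed FPKM of the 9 neuropeptide genes, in the 3 CP and 3 GZ libraries. NPY holds 26.6% to 28.3% in the CP libraries and 47.1% to 68.5% in the GZ libraries, and GRP 13.6% to 19.1% in CP and 1.14% to 2.68% in GZ.

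General genes of GABAergic neurons were mostly higher in GZ where they passed the test. Among 22 tested interneuron genes, GZ had the higher level for 11 and CP for 2 (shares over all genes tested 24.5% and 20.9%), with a median log2 difference of -0.55. With 1 library left out, these counts ran from 9 to 12 for GZ and from 2 to 3 for CP. GAD1 and GAD2, which code for the enzymes that make GABA, had log2 differences of -1.16 ± 0.10 and -2.00 ± 0.21 (SE, limma adjusted p = 1.58e-04 and 3.68e-04). SP9, DLX6 and LHX6, transcription factors of interneuron development, were 7.11-fold, 4.92-fold and 3.16-fold higher in GZ. RELN, which codes for the secreted protein reelin, and CALB1, which codes for the calcium-binding protein calbindin, were 2.17-fold and 1.76-fold higher in CP.

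Each neuropeptide gene was also set against the mean of GAD1 and GAD2 within the same library, which removes any scaling between libraries. SST minus this mean was -2.15, -0.43 and -1.41 on the log2 scale in CP 1, 2 and 3, against -4.13, -5.05 and -4.78 in GZ 1, 2 and 3. NPY minus this mean was -0.95, -0.06 and -0.70 in CP 1, 2 and 3, against -0.96, -1.28 and -2.30 in GZ 1, 2 and 3. Relative to GAD1 and GAD2, SST was thus higher in every CP library than in every GZ library (log2 difference 3.32), and so was NPY (0.94), although CP 1 and GZ 1 were almost equal for NPY. With SLC32A1, the gene of the vesicular GABA transporter, added to the mean, the NPY zones overlapped (log2 difference 0.88). The zones were also apart for GRP (5.42), TAC1 (4.12), CRH (3.24), CCK (2.77) and PDYN (1.01), and they overlapped for VIP and PENK (2.27 and 0.89). With 3 libraries against 3, the smallest p of an exact two-sided permutation test is 0.1, and that was the p of the 7 genes whose zones were apart, so none can pass a threshold of 0.05. GAD1 and GAD2 were themselves lower in CP, so a ratio to them is higher in CP for a gene with equal FPKM in both zones.

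**Figure D4:**
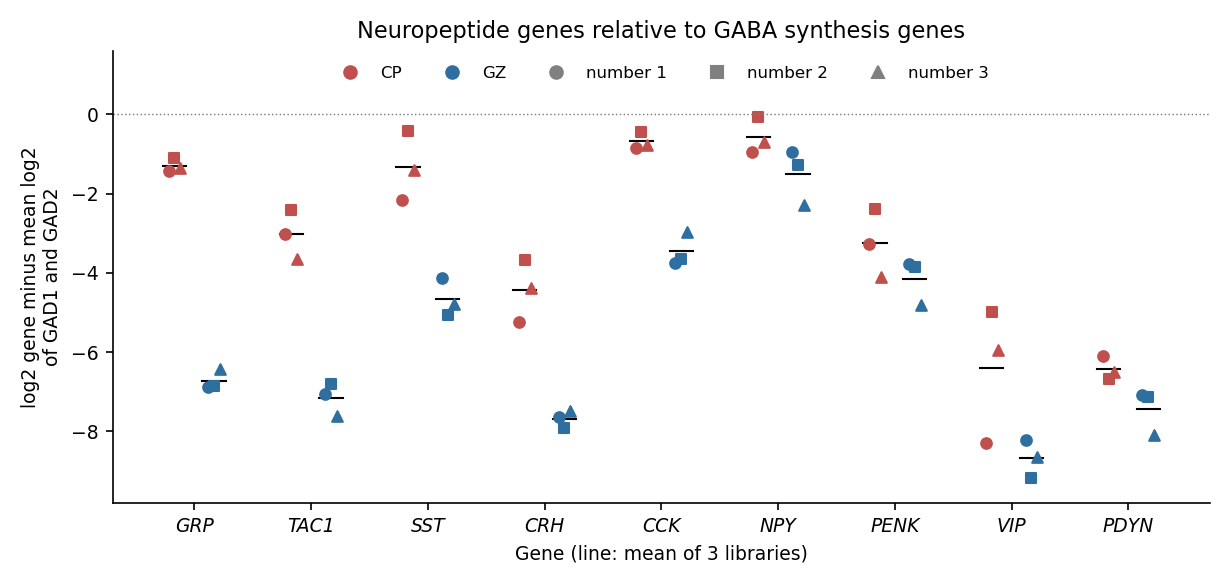
Log2 FPKM of each neuropeptide gene minus the mean log2 FPKM of GAD1 and GAD2 in the same library, for 3 CP and 3 GZ libraries; marker shape gives the library number and the line the mean. GRP is -1.43 to -1.11 in CP and -6.87 to -6.43 in GZ, and only VIP and PENK have overlapping zones.

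Of 25 genes in the receptor list 18 were in the table with a symbol and 9 passed the limit on the mean; 6 of the 9 were higher in CP and 3 did not pass, with no receptor called higher in GZ by limma or at an unadjusted p under 0.05 (0 genes). Over all genes tested 20.9% were called higher in CP and 24.5% higher in GZ. SSTR1 and NPY5R passed the limit only through their CP level, and with a mean of at least 1 the count higher in CP was 4. CRHR2 and SSTR3 lay below the limit and were not tested, and their GZ libraries all lay above their CP libraries. SSTR1, a somatostatin receptor, was 2.04, 1.37 and 1.53 on the log2 scale in CP 1, 2 and 3, against -0.95, -1.75 and -0.66 in GZ 1, 2 and 3, with no overlap. Its log2 difference was 2.77 ± 0.34 (SE, limma adjusted p = 6.78e-04), and its GZ level was low. NPY5R, a receptor for neuropeptide Y, was 3.20-fold higher in CP (limma adjusted p = 0.00318), and CCKBR, the cholecystokinin receptor most common in brain, 2.69-fold (limma adjusted p = 0.00387). With a pseudocount of 1 FPKM the log2 differences of SSTR1 and NPY5R were 1.49 and 0.94, and both calls remained.

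Both opioid-family receptor genes measured, OPRM1 and OPRL1, were higher in CP. OPRM1, the mu opioid receptor gene, was 4.01, 4.19 and 3.99 on the log2 scale in CP 1, 2 and 3, against 2.80, 2.85 and 2.24 in GZ 1, 2 and 3 (2.70-fold, limma adjusted p = 7.10e-04). OPRL1, the gene of the nociceptin receptor, was 3.51-fold higher in CP, while PNOC, the gene of the nociceptin precursor, had a log2 difference of 0.73 ± 0.35 (SE, limma adjusted p = 0.126), or 1.09 without GZ replicate 3 (limma adjusted p = 0.0153). Among receptors of the called peptides, the tachykinin receptor TACR1 (-0.09 ± 0.20, limma adjusted p = 0.735) and the CRH receptor CRHR1 (0.39 ± 0.25, limma adjusted p = 0.247) did not pass; without GZ replicate 3, CRHR1 had a log2 difference of 0.67 and a limma adjusted p of 0.0235. TACR2 (0.45 ± 0.16, limma adjusted p = 0.0520) passed without GZ replicate 3 (limma adjusted p = 0.0497) and with a pseudocount of 1 FPKM (0.0482). GRPR, the receptor for gastrin-releasing peptide, had a mean log2 value of 0.01 ± 0.48 in CP and -0.62 ± 0.24 in GZ (SD, n = 3 each) and was too low to be tested, as were VIPR1 and VIPR2. Per transcript length the level of GRP in CP was thus far above that of its receptor in the same libraries.

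Genes that process and store peptides were mostly higher in CP. CP had the higher level for 13 of 21 tested and GZ for 1, while 7 did not pass, with a median log2 difference of 0.62. The shares called over all genes tested were 20.9% for CP and 24.5% for GZ. The CP count of the list ran from 10 to 13 when 1 library was left out, and was 9 without both libraries numbered 1. PCSK2, a convertase that cuts many neuropeptide precursors, was 5.11, 5.65 and 5.18 on the log2 scale in CP 1, 2 and 3, against 2.80, 2.82 and 2.66 in GZ 1, 2 and 3 (5.87-fold, limma adjusted p = 4.15e-05). PCSK1, the other main neuronal convertase, was low in both zones (-1.41 ± 0.20 in CP and -1.24 ± 0.23 in GZ, SD, n = 3 each) and was not tested. SCG2, which codes for secretogranin II, a protein of dense-core vesicles, was 4.85-fold higher in CP (log2 difference 2.28 ± 0.19 SE, limma adjusted p = 1.27e-04), and CADPS2, which codes for a factor that primes these vesicles, 2.38-fold. PTPRN2, which codes for phogrin, a membrane protein of dense-core vesicles, was the exception, 2.92-fold higher in GZ (-1.55 ± 0.14 SE, limma adjusted p = 1.65e-04). PAM, which codes for the enzyme that amidates peptides, had a log2 difference of -0.06 ± 0.08 (SE, limma adjusted p = 0.613).

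**Figure D5:**
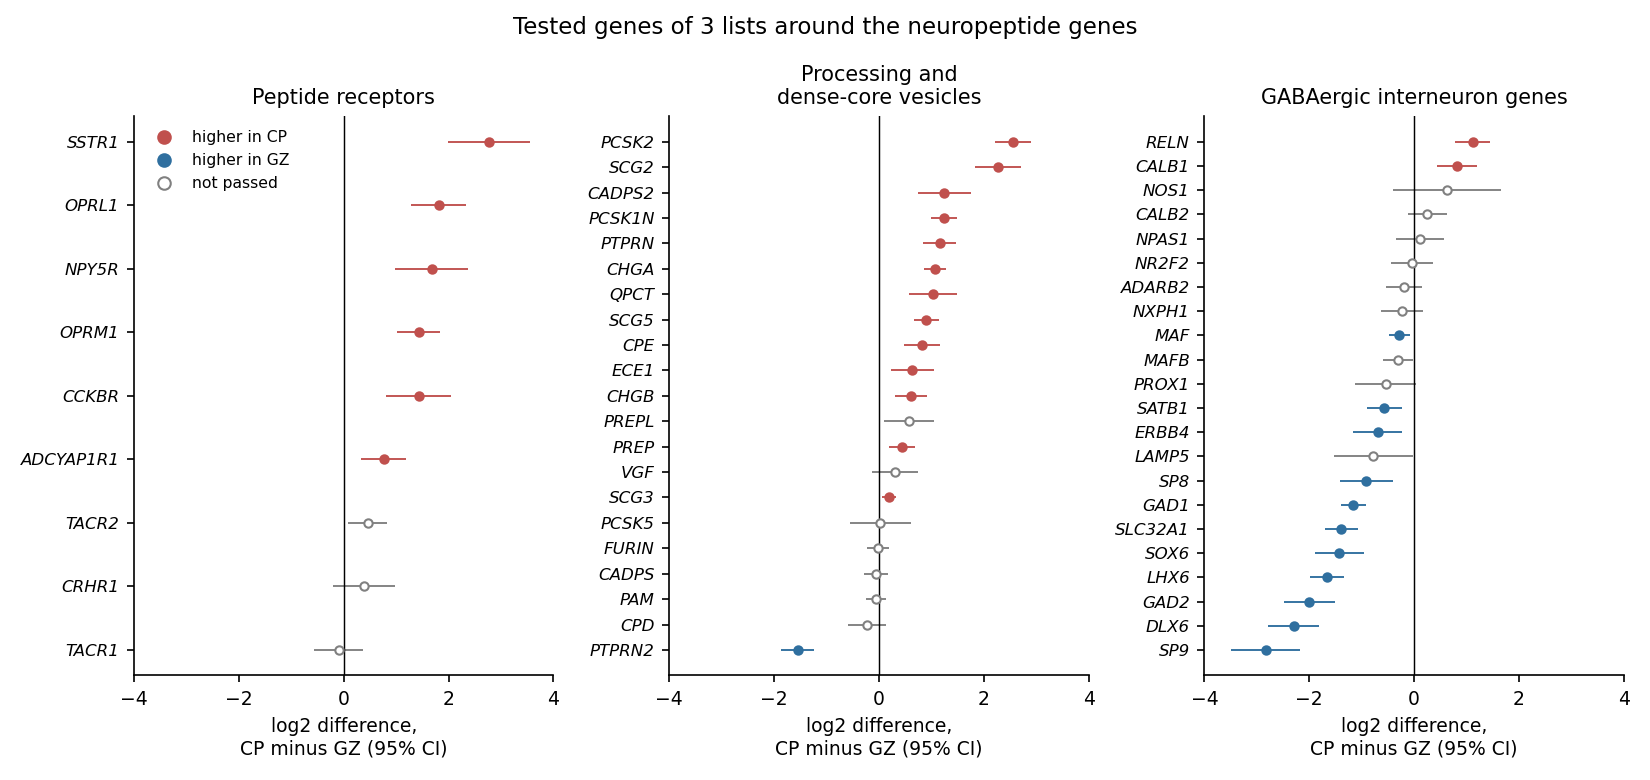
Log2 difference, CP minus GZ, with 95% confidence intervals (limma) of the tested genes of the receptor, processing and interneuron lists; colour gives the call. Receptor and processing genes lie mostly to the right of 0 (6 of 9 and 13 of 21 called higher in CP), and interneuron genes mostly to the left (11 of 22 called higher in GZ).

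Other peptide genes went both ways. Of 48 listed, 26 were in the table with a symbol and 11 were tested: CP had the higher level for 3 and GZ for 2, and 6 did not pass. These shares are near those of all genes tested (20.9% and 24.5%), and with a mean of at least 1 each count was 1. EDN3 (endothelin 3), NPPA (atrial natriuretic peptide) and ADM (adrenomedullin) were 3.47-fold, 3.11-fold and 2.34-fold higher in CP (limma adjusted p = 0.00744, 0.00248 and 0.0229). GNRH1, the gene of gonadotropin-releasing hormone, was 3.23-fold higher in GZ (limma adjusted p = 0.00123). TAC3, which codes for neurokinin B and so belongs with TAC1 to the tachykinins, was 2.04-fold higher in GZ (-1.03 ± 0.27 SE, limma adjusted p = 0.0156), against the direction of TAC1. Leaving out CP replicate 2 (limma adjusted p = 0.0533) or 3 (0.0542), or GZ replicate 1 (0.0535), lost the TAC3 call. EDN3 and ADM passed the limit on the mean only through their CP level, and GNRH1 only through its GZ level, so the limit favoured these directions. With a pseudocount of 1 FPKM the log2 differences of EDN3, ADM and GNRH1 were 0.92, 0.71 and -0.93, and all 3 calls remained. The ADM call was lost by leaving out CP replicate 2 (0.0729) or 3 (0.0796), or GZ replicate 2 (0.0520).

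Marker lists of the cells that could carry these peptides are to be read against the 20.9% of all genes tested that were called higher in CP and the 24.5% called higher in GZ. In the subplate and deep-layer list CP had the higher level for 8 of 15 tested genes and GZ for 1, or for 2 when GZ replicate 3 was left out. The CP count ran from 6 to 8 when 1 library was left out, and was 6 with a mean of at least 1. FEZF2, which directs neurons to project below the cortex, was 5.53-fold and CPLX3, a subplate marker, 3.37-fold higher in CP (log2 difference 1.01 with a pseudocount of 1 FPKM). CPLX3 passed the limit on the mean only through its CP level. ST18 was 5.21-fold higher in GZ. Summed FPKM of that list ran from 464.9 to 504.9 in CP and from 257.4 to 281.2 in GZ. Of 10 upper-layer genes 6 were higher in CP, among them MEF2C (log2 difference 3.00), and CUX2 was higher in GZ, a call that was lost when CP replicate 1 or 2 or GZ replicate 1 or 3 was left out. In the medial ganglionic eminence list 4 of 6 were higher in GZ, with NKX2-1 10.5-fold, and ZIC1 was 2.54-fold higher in CP. Their part in the neuropeptide differences was not tested.

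Striatal projection neurons make much of the TAC1, PENK and PDYN of the adult forebrain. Among 15 tested striatal genes GZ had the higher level for 4 and CP for 2, counts near or below the shares of all genes tested (24.5% and 20.9%). The called genes included BCL11B (3.36-fold) and the dopamine receptor gene DRD2 (2.84-fold), higher in GZ, and ZNF503 (2.84-fold) and FOXP1 (2.32-fold), higher in CP. The DRD2 call was lost without CP replicate 2 or 3 (limma adjusted p = 0.0705 and 0.0599) or GZ replicate 1 or 2 (0.0598 and 0.0522). The count for GZ became 1 without CP replicate 2, 2 without CP replicate 3 or without GZ replicate 1 or 2, and 8 without GZ replicate 3. PPP1R1B, which codes for DARPP-32, a defining protein of these neurons, had log2 values of 3.61 ± 0.04 in CP and 3.81 ± 0.54 in GZ (SD, n = 3 each, limma adjusted p = 0.530). Its log2 difference was -0.48 without GZ replicate 3 (limma adjusted p = 0.0394) and 0.06 without GZ replicate 1. TAC1 and PENK, the markers of the 2 classes of these neurons that were tested here, had log2 differences of 2.54 and -0.69.

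Other cell types were checked with the remaining lists, against the same shares of all genes tested. None of the 5 measured hypothalamus genes reached the limit on the mean, with the highest, HCRT, at a mean log2 value of -1.94 in CP and -1.39 in GZ. Endothelial and mural genes were higher in CP for 9 of 10 (summed FPKM 120.8 to 171.3 in CP and 30.7 to 65.8 in GZ), led by FLT1 (4.27-fold) and KDR (4.06-fold). GZ had the higher level for 5 of 10 radial glia genes and CP for 1; leaving out CP replicate 2 or 3 or GZ replicate 2 gave 3 for GZ, and leaving out CP replicate 3 or GZ replicate 3 gave 2 for CP. Of 4 erythroid genes 2 were higher in CP, or 1 without any 1 of the CP replicates or without GZ replicate 1. No microglia gene of 5, meningeal gene of 7 or choroid plexus gene of 2 was called in limma; at an unadjusted p under 0.05 there were 0 microglia, 3 meningeal and 0 choroid plexus genes. Leaving out CP replicate 1 or 3 or GZ replicate 2 or 3 gave 1 or 2 meningeal calls, and leaving out GZ replicate 3 gave 1 choroid plexus call. The part of vessels or of other cell types in the neuropeptide levels was not tested.

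For each called member the 3 genes with the most similar profile over the 6 libraries were found among 11091 other tested genes with a symbol, as the smallest root mean square distance between log2 profiles centred on their own mean. For GRP these were FAM81A (distance 0.13), the muscarinic receptor gene CHRM3 (0.15) and DYNC1I1, which codes for a dynein chain (0.21). For SST they were MICALL2 (0.07), CORO2A (0.16) and SLC2A13 (0.19), and for CCK SH3YL1 (0.08), PCSK1N (0.10) and SULF1 (0.11). PCSK1N codes for proSAAS, an inhibitor of a peptide convertase. For CRH they were NPY5R (0.11), NR1I2 (0.15) and the estrogen receptor gene ESR1 (0.16). TAC1 had no gene as close, with USP43 (0.30), VSTM2L (0.32) and SCG2 (0.36). With 6 libraries and so many candidates, close profiles are a description and no test was made.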

How the data were processed

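RNA-seq libraries were prepared with a TruSeq kit, per the labels' protocols. Per the submitters' processing notes, STAR was among the tools and rheMac8 (Mmul_8.0.1) was the build, with no roles named. The read counter and strand setting were not given in the sources used here, nor was the annotation. The deposited log2 FPKM carry the authors' own cqn normalization, per the labels. Symbols came from a reference table, which paired 14700 of 22345 identifiers (65.8%); list genes with no symbol there are not analysed here. The Hi-C, DNase and CTCF files were not used here, because no gene positions on their build were at hand.

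Genes with a mean log2 value of at least 0 over the 6 libraries (13460) were tested for CP minus GZ with limma 3.58.1 in R 4.3.3 (lmFit, eBayes with trend, two-sided, no block, no pseudocount), with Benjamini-Hochberg adjustment over all of them and a threshold of 0.05. The fit was tested on simulated data of 13460 genes, with 100 changed by a log2 difference of size 1 and 100 by size 2. It recovered 62% of the first and 91% of the second. A far larger share of genes was called in the real data, so these rates do not give the power of the fit there. Permutation tests used scipy 1.17.1. The members and the gene lists were chosen with earlier results of these data known, and no list was tested as a set. The rule for named genes took all members, at most 4 called genes from each list by size of difference (1 or 2 uncalled genes from lists without calls), GAD1 and GAD2, and the profile neighbours; further genes, such as other receptors, were named after their values were seen. Alternatives were a replicate block, quantile normalization, median centring, a pseudocount of 1, other limits on the mean, other variance models and leaving out libraries.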

Additional observations from a re-analysis of the deposited data

How the results depend on the processing

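The GRP, TAC1, SST, CRH and CCK differences stayed positive and past the threshold under every alternative run; a mean of at least 1 left CRH untested. Leaving out 1 library at a time gave log2 differences of 3.75 to 3.91 for GRP, 2.19 to 2.90 for TAC1, 1.37 to 2.03 for SST, 1.36 to 1.95 for CRH and 1.04 to 1.32 for CCK. For NPY they ran from -1.16 to -0.37 and for PENK from -1.15 to -0.22. The number of members higher in CP was 5 each time a library was left out and 4 with a mean of at least 1, and the number higher in GZ ran from 0 to 1. Leaving out both libraries numbered 1 gave 1716 genes higher in CP and 1647 higher in GZ over the whole table, against 2816 and 3297, and left the same number of members called. A replicate block on the library number gave PENK a log2 difference of -0.69 with a limma adjusted p of 0.00880, so that 1 member was higher in GZ; for NPY it gave 0.0884. Deviations of same-numbered libraries from their zone means correlated at -0.38, 0.30 and 0.35 for numbers 1, 2 and 3 over 13460 genes. Between libraries of different numbers they correlated at -0.52 to 0.20. Deviations from a mean of only 3 libraries are tied to each other, so these correlations cannot decide whether the numbers are pairs. The numbers were not taken as pairs, because the labels do not say that they are. Peaks near the genes, planned with windows of different widths, were not analysed here. Read depth is unknown, so counting error at the low levels of VIP, PDYN and GZ CRH could not be given.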
